A study of Mus musculus with 48 samples.

Results

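Alcohol, aldehyde and retinol oxidoreductases are enzymes that move hydrogen between alcohols and aldehydes or ketones, or oxidise aldehydes to acids. They were taken as all probe sets with exactly 1 gene symbol in the platform annotation that starts with Adh, Aldh, Akr, Rdh or Dhrs followed by a digit, Akr1c18 left out. This rule, which uses no measured value, gave 78 probe sets for 52 genes, of 22626 probe sets on the array and of 12393 genes with a probe set of their own. RNA of 5 mouse tissues was compared in 8 groups of 3 RNA samples each: male liver, female liver, male kidney, female kidney, male hypothalamus, female hypothalamus, testis and ovary. Each RNA sample was hybridised to 2 Affymetrix arrays, whose values were averaged, so n = 3 per group. Per the labels the mouse RNA was purchased, each RNA sample came from a pool of 10 animals, and no treatment or genetic change is named. Strain and age are not given in the labels. The labels describe polyA-selected RNA for liver, kidney, testis and ovary and total RNA for hypothalamus, while another field gives total RNA for all samples. This difference runs along every comparison with hypothalamus. Whether the 3 samples of a group are separate pools is not stated, and if they are not, p-values reflect technical spread only.

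These families work in series. Alcohol dehydrogenases (Adh) and retinol dehydrogenases (Rdh, and several Dhrs) oxidise ethanol or retinol to an aldehyde, and aldehyde dehydrogenases (Aldh) oxidise that aldehyde to an acid, such as acetate or the hormone retinoic acid. Aldo-keto reductases (Akr) mostly run the other way with NADPH, reducing aldehydes, sugars and the keto groups of steroids. The liver is known for ethanol clearance, retinoid storage and bile acid synthesis, the kidney for reabsorption and steroid turnover, and the gonads for steroid production and for retinoic acid that germ cells need to enter meiosis.

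Values are scaled intensities without a unit, and the 40th percentile of an array lay between 106.8 and 198.3. Intensities of different probe sets are not comparable, so each gene is compared only with itself across groups. Differences are given as log2 of the intensity plus a pseudocount of 48.1, which shrinks the differences of dim genes, and a gene is called where the adjusted p of limma (Benjamini-Hochberg over all tested probe sets) lies under 0.05. Probe sets had to exceed the 40th percentile of the array in 3 or more of the compared RNA samples to be tested. Over all groups 66 of the 78 member probe sets and 47 of the 52 genes were tested. For Aldh1a3, Aldh3a1, Rdh1, Rdh12 and Akr1b10 all probe sets were too dim, with a highest value in any RNA sample of 177.1, 87.56, 55, 76.5 and 174.9. The brightest probe set stands for each of the 18 genes with several. Summed marker intensities followed the labelled tissues, with liver markers at 91520 to 107700 in liver and at most 2354 elsewhere, and germ cell markers at 80050 to 101700 in testis and at most 465.4 elsewhere. Pancreas markers summed to 7550 to 35380 in liver, oviduct markers to 9296 to 11330 and adipocyte markers to 6910 to 10180 in ovary, and their part in the results was not tested.

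Many members sit in gene arrays, in which runs of neighbours were highest in the same tissue and some neighbours differed. On chromosome 13 the order is Akr1c14, Akr1c13, Akr1c12, Akr1c6, Akr1c20, Akr1c21 and Akr1e1, with Akr1c18 and Akr1c19 among them. The 5 members from Akr1c14 to Akr1c20 were highest in liver, while the adjacent Akr1c21 was highest in kidney. On chromosome 10 Rdh9 and Rdh7 were highest in liver, Rdh16 in kidney, and Rdh16f2 was high in both. Rdh19, not a member, lies among them. The chromosome 3 row runs Adh7, Adh1, Adh4 and Adh5, with Adh7 highest in ovary and the other 3 in liver. Adh6a and Adh6b, not members, lie between Adh1 and Adh4. Akr1cl, the gonadal member of the Akr1c group, lies apart on chromosome 1. Probe sets for such close relatives may read each other's transcripts, which the intensities cannot separate.

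The members' promoters ranged from CpG-free to CpG-rich, and 6 are printed to show the ends of that range beside the tissue patterns. The windows are those of RefSeq on GRCm38.p6, from 250 bases before to 50 bases after a start, and 45 of the 52 genes had at least 1, giving 52 windows. Capitals mark CpG dinucleotides. Akr1c6, the member with the largest liver margin, at chr13:4434093-4434392 (plus strand), held 0 CpG, as did the outer window of Rdh7 at chr10:127889198-127889497 (minus strand) and that of Akr1cl at chr1:65032710-65033009 (minus strand). The kidney gene Akr1c21 at chr13:4573825-4574124 (plus strand) held 1.
Akr1c6: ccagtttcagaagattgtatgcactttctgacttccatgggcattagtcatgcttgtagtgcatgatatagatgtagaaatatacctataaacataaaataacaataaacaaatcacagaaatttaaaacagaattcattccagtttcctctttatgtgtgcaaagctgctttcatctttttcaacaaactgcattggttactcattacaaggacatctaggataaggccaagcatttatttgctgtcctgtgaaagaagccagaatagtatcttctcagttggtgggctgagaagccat
Rdh7: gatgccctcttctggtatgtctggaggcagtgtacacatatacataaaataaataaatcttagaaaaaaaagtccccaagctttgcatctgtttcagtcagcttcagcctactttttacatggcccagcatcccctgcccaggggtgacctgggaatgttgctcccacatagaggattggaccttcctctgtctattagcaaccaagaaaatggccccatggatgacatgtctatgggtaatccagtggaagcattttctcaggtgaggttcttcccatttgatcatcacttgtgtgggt
Akr1cl: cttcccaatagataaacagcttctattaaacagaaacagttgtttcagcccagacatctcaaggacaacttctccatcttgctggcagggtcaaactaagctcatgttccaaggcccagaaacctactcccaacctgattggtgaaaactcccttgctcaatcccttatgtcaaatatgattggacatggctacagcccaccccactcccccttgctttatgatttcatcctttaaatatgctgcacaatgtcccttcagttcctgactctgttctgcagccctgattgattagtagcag
Akr1c21: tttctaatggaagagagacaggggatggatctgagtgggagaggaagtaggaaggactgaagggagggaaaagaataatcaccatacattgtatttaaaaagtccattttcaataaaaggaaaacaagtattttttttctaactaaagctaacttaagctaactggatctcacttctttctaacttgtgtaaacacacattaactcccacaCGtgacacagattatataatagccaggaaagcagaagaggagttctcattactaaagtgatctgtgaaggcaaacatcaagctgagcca
Aldh1a2, highest in testis, had 50 CpG dinucleotides in the window at chr9:71215539-71215838 (plus strand), and Dhrs1, also highest in testis, had 44 at chr14:55745635-55745934 (minus strand).
Aldh1a2: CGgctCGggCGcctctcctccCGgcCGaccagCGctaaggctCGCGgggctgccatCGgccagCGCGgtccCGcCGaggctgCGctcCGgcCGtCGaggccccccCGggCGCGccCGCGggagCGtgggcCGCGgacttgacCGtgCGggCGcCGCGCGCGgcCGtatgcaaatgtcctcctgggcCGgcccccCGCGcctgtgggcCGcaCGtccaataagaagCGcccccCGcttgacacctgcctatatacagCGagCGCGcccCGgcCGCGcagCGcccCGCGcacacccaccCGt
Dhrs1: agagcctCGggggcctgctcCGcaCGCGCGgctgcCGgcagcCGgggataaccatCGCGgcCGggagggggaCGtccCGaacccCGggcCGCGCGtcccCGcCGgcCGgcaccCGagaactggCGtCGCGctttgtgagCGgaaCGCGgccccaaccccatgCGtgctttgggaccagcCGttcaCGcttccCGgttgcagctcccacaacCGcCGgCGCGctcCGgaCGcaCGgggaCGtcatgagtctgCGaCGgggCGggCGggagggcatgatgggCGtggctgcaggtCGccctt
In all 20 windows of members highest in liver the median was 3 CpG dinucleotides (range 0 to 26), and 16 held fewer than 10. The 3 windows of members highest in ovary had the same median of 3 (0 to 23). For the 4 of members highest in kidney it was 6.5 (1 to 27). The 4 windows of members highest in testis came from 3 genes and had a median of 27.5 (7 to 50). Those of Rdh11 held 7 and 11. The testis calls of Aldh1a2 and Dhrs1 were lost under several alternatives given below. The median was 6.5 over all 52 member windows and 7 over the 32851 windows of the whole table. Fewer than 10 were held by 63.5% of member windows and 56.5% of all windows. These are descriptions of few windows, several of them from duplicated genes or from alternative starts of 1 gene. Searched on both strands, TATAAA stood in 15.4% of member windows and 13.6% of all, and TTGCNNAA, the core that C/EBP factors bind, in 21.2% and 10.8%. CAAGGTCA (NR5A factors) stood in 1.92% and 1.56% and CAAAGTCCA (HNF4) in 0% and 0.475%.

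The comparison of 5 tissues asked where each member was highest, taking liver, kidney and hypothalamus as the mean of both sexes. In 1 limma fit of all 24 RNA samples, 22 of 66 member probe sets (33.3%) were called higher in liver than in each of the 4 other tissues, against 8.88% of all 18058 tested. Some of these, such as Akr1c6 and Rdh7, were tested only because of liver, where they are high. The same filter applied to the background shares. Kidney was highest for 9 members (13.6%, background 6.73%), ovary for 6 (9.09%, background 9.13%), testis for 4 (6.06%, background 16.2%) and hypothalamus for 1 (1.52%, background 19.6%). By gene these were 18 in liver, 5 in kidney, 3 in ovary, 3 in testis and 1 in hypothalamus, and 17 tested genes were highest in no single tissue. The hypothalamus had the lowest mean of the 5 tissues for 21 of the 47 genes and the liver the highest mean for 23. Median differences of members were 1.76 for liver minus hypothalamus, 1.55 for liver minus testis and 1.12 for liver minus ovary, where all tested probe sets had medians of -0.24, 0.04 and -0.26. With median centring these were 2.15, 1.52 and 1.45 for members and 0.15, 0.005 and 0.07 for all. In these bulk samples fewer cells of a type and less RNA per cell cannot be told apart.

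**Figure D1:**
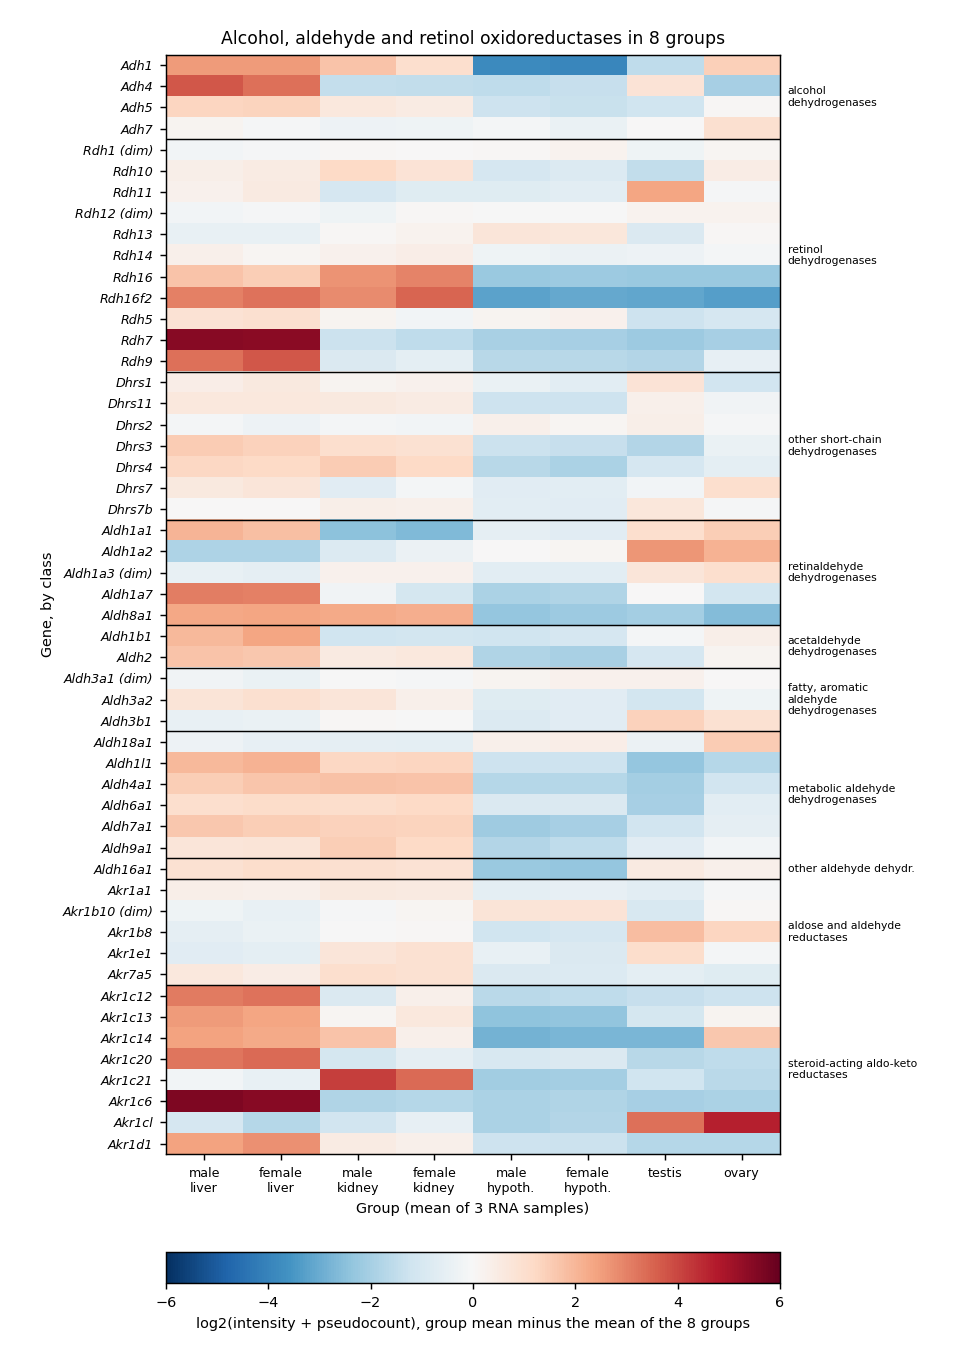
Group means of the 52 genes (rows, by class) in the 8 groups (columns), as the difference on the log2(intensity + pseudocount) scale from each gene's own mean over the groups; genes too dim to be tested in any comparison of all groups are marked. Red cells gather in the liver columns, most strongly for Akr1c6 and Rdh7, and the hypothalamus columns are mostly blue.

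All 4 alcohol dehydrogenases were highest in 1 tissue, 3 of them in liver. Adh1, which oxidises ethanol and retinol, stood at 13320, 15320 and 17170 in male liver and at 15390, 15050 and 14790 in female liver. It reached 5671, 7253 and 8057 in ovary, 9410, 6480 and 9453 in male kidney, and only 98.56 to 165.2 in the 6 hypothalamus samples. Liver exceeded ovary, the next tissue, by 1.13 ± 0.20 on the log2 scale (SE; limma adjusted p = 3.56e-05), and ovary and kidney did not differ by a call. Adh4, a liver-type alcohol dehydrogenase, had 3942, 3795 and 3294 in male and 3361, 2318 and 2581 in female liver. Its second tissue was testis with 500, 383.3 and 485.6, and the ovary stayed at 18.6, 33.4 and 19.7, below the pseudocount. Liver lay above testis by 2.67 ± 0.15 (limma adjusted p = 9.15e-14), with no overlap among the samples. Adh5, which clears formaldehyde bound to glutathione and is known as the ubiquitous member, ran from 4881 to 5699 in liver, 2517 to 3815 in kidney and 775.1 to 940.2 in hypothalamus. Its liver excess over kidney was 0.77 ± 0.10 (limma adjusted p = 3.88e-07). Adh7, a retinol-active enzyme best known from stomach lining, had 537.7, 452.2 and 438 in ovary, above every other sample (130.7 to 276.7). A second probe set of Adh7 was too dim to be tested.

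Of 9 tested retinol dehydrogenases 3 were highest in liver, 2 in kidney, 1 in testis and 1 in hypothalamus. Rdh7, an enzyme active on retinol and on steroid hydroxyl groups, had 13250, 12980 and 12750 in male liver and 12390, 13710 and 11800 in female liver. In kidney it ranged from 33.8 to 128.1 and in the other 12 samples from 7.45 to 45.65. Outside liver only male kidney 1, at 128.1, lay above the lowest 40th percentile of any array (106.8). Rdh7 was therefore tested only because of liver. The liver excess over kidney was 6.88 ± 0.16 on the log2 scale (limma adjusted p = 2.32e-20). Rdh9, a relative of Rdh7 read by a probe set that may cross-hybridise, showed 2568 to 4778 in liver and 209.6 at most elsewhere. Rdh16 had the reverse order of liver and kidney: male kidney stood at 1287, 1685 and 1705 and female kidney at 1715, 2038 and 2025, and the 6 liver samples ran from 429 to 986.5. All 12 samples of hypothalamus, testis and ovary lay at 3.4 to 9.25, and kidney exceeded liver by 1.23 ± 0.13 (limma adjusted p = 2.69e-08). Rdh16f2 was present at 4256 to 6610 in liver and 3307 to 6961 in kidney, and at 9.10 to 28.7 in all others. Its liver minus kidney difference was -0.01 ± 0.11 and was not called (limma adjusted p = 0.938).

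Among the remaining retinol dehydrogenases, each tissue but the ovary had a leading member. Rdh11, which reduces retinaldehyde in the endoplasmic reticulum, was high in testis with 2397, 2369 and 3899, above the 196.6 to 1004 of all other samples. Testis exceeded liver by 2.00 ± 0.21 (limma adjusted p = 9.17e-09), and a second probe set of Rdh11 was also highest in testis. Rdh10, the retinol dehydrogenase that embryos need to make retinoic acid, was highest in kidney at 762.3 to 1396, by 0.56 ± 0.12 over liver (limma adjusted p = 2.57e-04). That call did not hold with the female groups alone (0.30, limma adjusted p = 0.155). Rdh13, a mitochondrial family member, was the 1 gene highest in hypothalamus, at 369.9 to 470.5 against 247.1 to 334.8 in kidney (difference 0.55 ± 0.10, limma adjusted p = 5.87e-05), a comparison along which the RNA type differs. Rdh5, known from the visual cycle of the eye, was highest in liver at 584.5 to 732.8. Rdh14 was called highest nowhere, with 421.5 to 1078 over all 24 samples.

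The other short-chain dehydrogenases were broad. Of 7 Dhrs genes 5 were highest in no single tissue. Dhrs3, which reduces retinaldehyde back to retinol, was highest in liver at 1867 to 2439, against 1202 to 1725 in kidney and 126.7 to 324.9 in testis. Its margin over kidney was 0.49, and it was not called with the male groups alone (0.52, limma adjusted p = 0.113) or the female groups alone (0.46, 0.147). Dhrs4, a peroxisomal carbonyl reductase, was not called different between kidney (2059 to 3110) and liver (2112 to 2496). Dhrs1 was highest in testis with 1266, 1400 and 981.6, but its margin over liver (767.2 to 1124) was 0.36 ± 0.14 and the samples overlapped (limma adjusted p = 0.0275). That call was lost without testis 1, testis 2, male liver 3 or female liver 1, at margins of 0.32, 0.25, 0.31 and 0.32. It was also lost with quantile normalization (0.26), in the technical replicate arrays alone (0.20) and against female liver alone (0.28).

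Of 4 tested genes classed as retinaldehyde dehydrogenases, the enzymes that make retinoic acid, 1 was highest in liver, 1 in testis and 2 in no single tissue. Aldh1a1, the main adult enzyme of this step, had 8909, 10380 and 12240 in male liver, 4899, 3725 and 7435 in testis, and 5843, 7949 and 7707 in ovary. Liver and ovary did not differ by a call, nor did ovary and testis. Kidney was lowest, with 1344, 254.7 and 198.6 in males and 791.3, 217.3 and 253.8 in females, so that the sample numbered 1 stood above the other 2 in both sexes. Aldh1a7, a close neighbour and relative of Aldh1a1 that is not known to use retinaldehyde, was highest in liver at 3732 to 5935, by 3.04 ± 0.22 over testis (limma adjusted p = 2.1e-11). Aldh1a2, the enzyme that makes retinoic acid in embryo and gonad, ran opposite to it. Its values were 1206, 1217 and 2094 in testis and 718.1, 1108 and 1089 in ovary, and only 8.65 to 33.55 in the 6 liver samples. Testis lay above ovary by 0.57 ± 0.23 in the fit of all groups (limma adjusted p = 0.0286), a call that was lost without testis 3 or ovary 1 (margins 0.31 and 0.38), with 0.25 times the pseudocount (0.59) and in the technical replicate arrays alone (0.51), and was not made in the fit of the 2 gonads alone. Aldh8a1 is an enzyme of tryptophan breakdown that also takes retinaldehyde in vitro. Its brightest probe set was not called different between liver (4341 to 6596) and kidney (4351 to 6316). It lay at or below 265.1 in all other samples. A dimmer probe set of Aldh8a1 was called highest in liver, at 3163 to 3864 against 2310 to 2971 in kidney (difference 0.405).

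**Figure D2:**
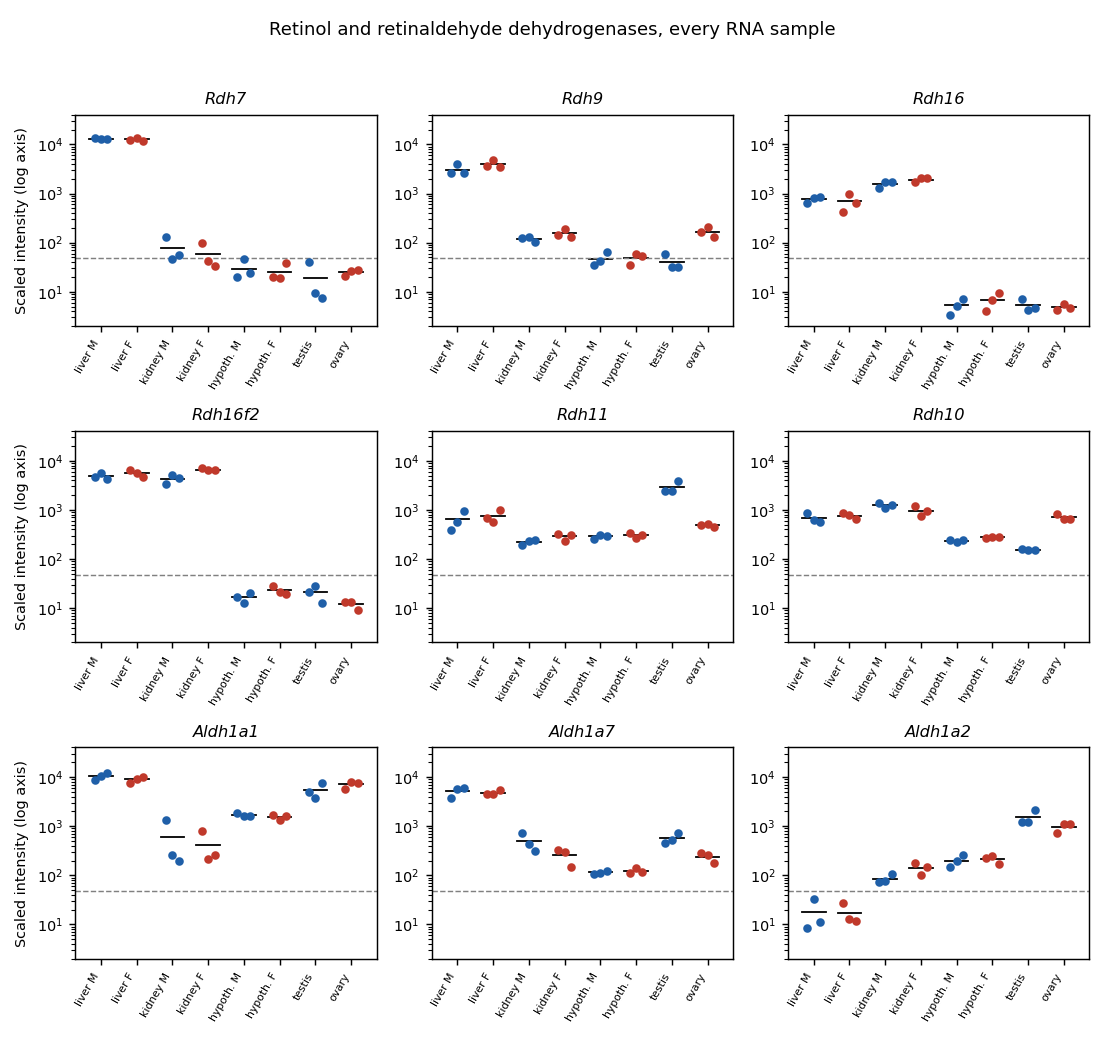
Scaled intensity (log axis) of 9 retinol and retinaldehyde dehydrogenases in every RNA sample, 3 per group; blue points are male and red points female samples, black lines are group means, and the dashed line is the pseudocount of 48.1. Rdh7, Rdh9 and Aldh1a7 peak in liver, Rdh16 and Rdh16f2 are high in liver and kidney alone, and Rdh11 and Aldh1a2 peak in testis.

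Both acetaldehyde dehydrogenases were highest in liver. Aldh2, the mitochondrial enzyme that removes acetaldehyde made from ethanol, stood at 11040, 9969 and 9818 in male liver and 10070, 9286 and 9491 in female liver. Kidney followed at 3010 to 5824, ovary at 3055 to 3898, testis at 1350 to 1654 and hypothalamus at 708 to 917.3, and every step in this order was called. That holds for its brightest probe set. The dimmer ones, at 167.9 to 350.5 and 162.6 to 666.1 in liver, were called highest in no tissue. No step between neighbours in their own orders was called. Aldh1b1, its mitochondrial relative, showed 795 to 1475 in liver, 260.6 to 309.8 in ovary and 50.35 to 98.35 in kidney. Aldh3a2, which oxidises fatty aldehydes, was highest in liver by 0.36 ± 0.14 over kidney (limma adjusted p = 0.0392), with overlapping samples. That call was lost without any 1 of male liver 1 or 2, female liver 2, male kidney 2 or 3, or female kidney 1, 2 or 3, at margins of 0.22 to 0.37 (limma adjusted p = 0.0521 to 0.156). It was also lost in the technical replicate arrays alone (0.28) and with the male groups alone (0.05). Aldh3b1 was highest in testis by mean, at 1267, 950 and 422.7, which overlapped the ovary at 675.3, 498.9 and 516.7, and was called highest there without testis 3 (0.88) or with median centring (0.83).

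Aldehyde dehydrogenases of amino acid, folate and choline metabolism numbered 6 tested genes, of which 1 was highest in liver, 1 in kidney, 1 in ovary and 3 in no single tissue. Aldh4a1 (proline breakdown) and Aldh6a1 (valine breakdown) did not differ by a call between the 2 organs, at 3728 to 5635 and 4324 to 5592 for the first and 2259 to 2857 and 2150 to 3020 for the other. Aldh7a1 (lysine breakdown) likewise showed no call by its brightest probe set, while a dimmer one was called highest in liver. With median centring the brightest one was called too (0.27). Aldh1l1, which oxidises formyl-folate, led in liver with 9620 to 12790 against 5782 to 7563 in kidney, a call that missed the threshold with liver and kidney of males alone (0.73, limma adjusted p = 0.0567). Aldh9a1, which acts in carnitine synthesis, was highest in kidney at 4729 to 6558 against 3134 to 4355 in liver, by 0.62 ± 0.09 (limma adjusted p = 5.14e-06). That holds for its brightest probe set. A second one, at 3984 to 6062 in kidney and 3243 to 4897 in liver, was called highest in no tissue. Aldh18a1, the enzyme that starts proline synthesis from glutamate, was highest in ovary with 1114, 844.2 and 939.8, against 343.8 to 457.1 in hypothalamus and at most 350 elsewhere. The margin over hypothalamus was 1.21 ± 0.15 (limma adjusted p = 2.9e-07), and 4 of its 5 probe sets were highest in ovary. Aldh16a1 was low in hypothalamus alone, at 42.35 to 70.46 against 476.3 to 1231 in all other samples.

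Of 4 tested reductases of sugars and simple aldehydes, 1 was highest in a single tissue. Akr1a1, the general aldehyde reductase, stayed between 4755 and 14270 in all 24 samples. Its brightest probe set did not separate kidney from liver, and the 3 others were called highest in kidney. The brightest was called highest in kidney too with quantile normalization (0.69) and without any 1 of male liver 3, female kidney 1, testis 2 or testis 3 (0.24 to 0.30). Akr7a5, which reduces aflatoxin aldehydes, was highest in kidney at 5230 to 7596 against 3778 to 6521 in liver (0.42 ± 0.15, limma adjusted p = 0.0168), with overlapping samples. That margin was no longer called without female kidney 3 (0.35) or with median centring (0.35), in the first arrays alone (0.46), and with liver and kidney of males alone (0.36) or females alone (0.48). A second, dimmer probe set of Akr7a5 was also called highest in kidney, by 0.675 over liver. It had 3813 to 5772 in kidney and 2603 to 3511 in liver, without overlap. Akr1e1 was high in testis (1352 to 1540) and kidney (981.7 to 1763), which did not differ by a call, although testis was called higher without female kidney 3 or with median centring (0.37 each). Akr1b8, a reductase of lipid aldehydes, was high in both gonads, with 1838, 1272 and 2856 in testis and 1273, 1189 and 1345 in ovary, against 119.4 to 710.8 elsewhere.

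All 8 steroid-acting aldo-keto reductases were highest in 1 tissue, 6 in liver, 1 in kidney and 1 in ovary. Akr1c6, which interconverts strong and weak sex steroids, had 11890, 12670 and 12200 in male liver and 10150, 11730 and 11100 in female liver. All 18 other samples lay between 10.75 and 39.1, below the pseudocount, and the excess over kidney was 7.32 ± 0.08 (limma adjusted p = 9.01e-26). Akr1c6 therefore met the filter through liver alone. Akr1c20 ran from 2695 to 4451 in liver and reached at most 262.6 elsewhere. Akr1c12 showed 1463 to 2278 in liver and at most 228.9 elsewhere, and Akr1c13 1447 to 1936 and at most 691. Akr1d1, the steroid beta-reductase of bile acid synthesis, had 2265 to 3437 in liver and 442 to 864.5 in kidney (difference 2.16 ± 0.13, limma adjusted p = 9.2e-13). Akr1c14, which reduces dihydrotestosterone and progesterone metabolites, was spread over liver (2003 to 2925), ovary (1317 to 1927) and kidney (284.5 to 2403), with at most 41.75 in hypothalamus and testis. Its liver margin over ovary of 0.72 was not called without ovary 3 (0.59, limma adjusted p = 0.096), in the first arrays alone (0.60, 0.0605) or with the female groups alone (0.65, 0.0887).

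Akr1c21 and Akr1cl broke the liver pattern. Akr1c21, a steroid dehydrogenase known from kidney, stood at 9626, 5461 and 9121 in male kidney and 5158, 2493 and 7616 in female kidney. Liver came next with 266.6 to 415.4, and kidney exceeded it by 4.08 ± 0.19 (limma adjusted p = 1.73e-14). Akr1cl had 12150, 14300 and 13130 in ovary and 5199, 4721 and 5379 in testis, a difference of 1.36 (limma adjusted p = 0.00162 in the fit of all groups). In the other tissues 15 of 18 samples lay between 46.6 and 210.7, and 3 stood out: male liver 2 at 653.1, female kidney 2 at 509 and female kidney 1 at 405.6. Cyp11a1, the enzyme that opens steroid synthesis, was at 459.5 in male liver 2 and at 4.95 to 12.35 in the other 5 liver samples. Star and Cyp17a1, also measured as steroid-cell markers, did not stand out in male liver 2, at 132.1 and 118.8. The other liver samples had 78.64 to 158.2 and 64.94 to 280.8. Cyp11a1 was at 200.1 and 154.6 in female kidney 1 and 2, and at 12.1 to 125.9 in the other kidney samples. In female kidney 1 and 2 the 3 adrenal cortex markers measured summed to 1057 and 1017, against 538.7 to 641.7 in the other 4 kidney samples. Of these markers Cyp21a1 differed most, at 756.5 and 665.3 against 257 to 394.3. Cyp11b2 stood at 161.2 and 159.2 against 93.3 to 126.8, and Mc2r at 139.6 and 192.4 against 137.7 to 159. The part of steroid-making cells in these Akr1cl values was not tested.

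**Figure D3:**
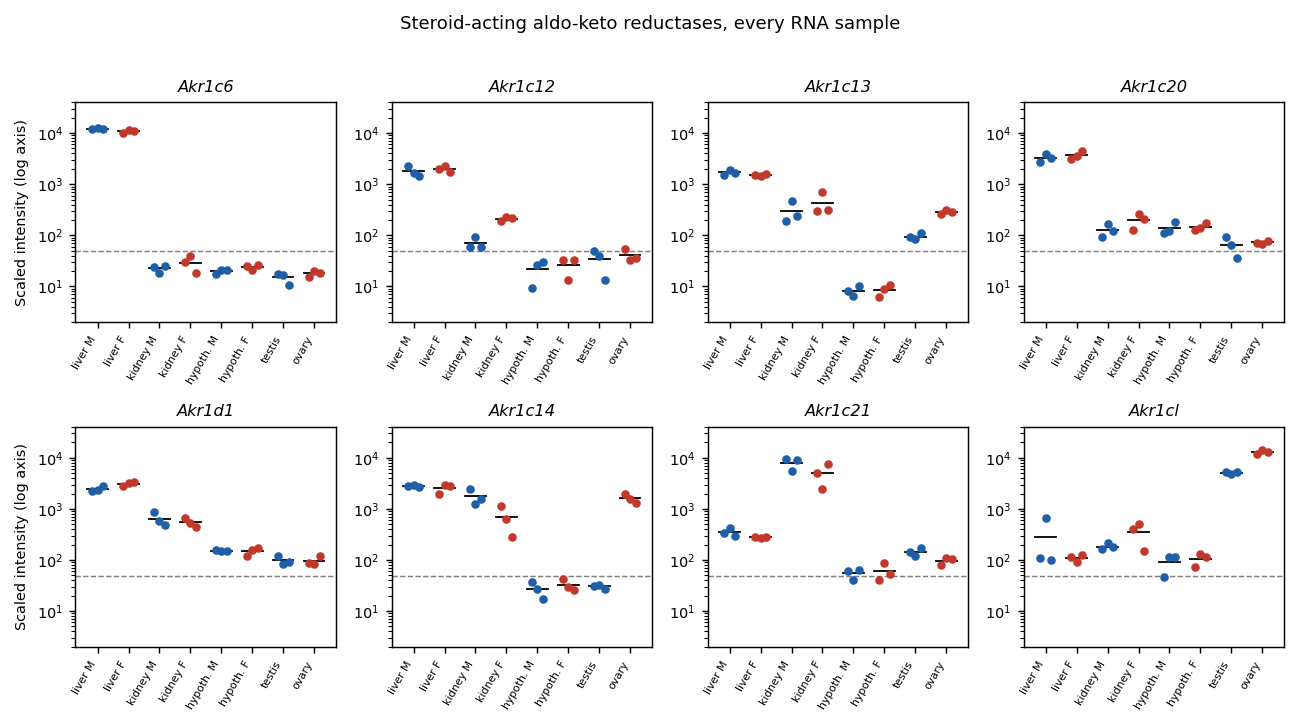
Scaled intensity (log axis) of the 8 steroid-acting aldo-keto reductases in every RNA sample, 3 per group; blue points are male and red points female samples, black lines are group means, and the dashed line is the pseudocount of 48.1. Akr1c6 falls below the dashed line outside liver, Akr1c21 peaks in kidney, and Akr1cl peaks in ovary and testis with 3 raised samples in liver and kidney.

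The series title names sex-specific transcription, which the comparison of males and females within a tissue addresses. In liver 0 of 61 tested member probe sets were called by limma, where 0.029% of all probe sets were called higher in males and 0.0217% in females. At an unadjusted p under 0.05 there was 1 higher in males and 1 higher in females (1.64% each, background 0.928% and 1.03%). Adh4 had 3942, 3795 and 3294 in males and 3361, 2318 and 2581 in females (log2 difference 0.43 ± 0.17, limma adjusted p = 1), and the sexes overlapped. Aldh1b1 had 795, 1025 and 1071 in males and 1331, 1152 and 1475 in females (-0.44 ± 0.16, limma adjusted p = 1), with no overlap. The share of all liver probe sets without overlap is not given here. The median member difference was -0.002, against -0.007 over all tested probe sets. Akr1c21 (351.6 in males against 276.4 in females) and the dim Dhrs2 (129.5 and 108.9) were the others among the 3 largest higher in males, and Rdh9 (3031 and 3948) and Akr1d1 (2481 and 3136) among those higher in females.

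In kidney 1 of 52 tested members was called, Akr1c12, which was lower in males. Its values were 58, 90.65 and 58.65 in males and 189.6, 228.9 and 217.4 in females. The groups did not overlap, although the female values sit near the 40th percentile of their arrays. The male values lay below the lowest 40th percentile of any array (106.8). Akr1c12 was therefore tested only because of the female samples, where it is high. With no filter it was not called (limma adjusted p = 0.075). The male minus female difference was -1.17 ± 0.16 (limma adjusted p = 0.0331), where 0.101% of all probe sets were called higher in females and 0.13% in males. Without any 1 of male kidney 1, male kidney 3, female kidney 1, female kidney 2 or female kidney 3 it missed the threshold (adjusted p = 0.152, 0.165, 0.0864, 0.227 and 0.129), with differences of -1.10 to -1.23. Akr1c13, its close relative on the array, had 185.9, 461.5 and 238.7 in males and 305.1, 691 and 315.7 in females and was not called.

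Same-numbered kidney samples of the 2 sexes deviated together, and with the number as a block 3 members were called. Akr1c14 had 2403, 1276 and 1590 in males and 1166, 624.6 and 284.5 in females, with every male sample above every female one. Its difference was 1.44 ± 0.43 (limma adjusted p = 0.654), and 1.44 ± 0.25 with the block (limma adjusted p = 0.0471), and it was called when all 8 groups shared 1 estimate of the spread (0.0147). Aldh1a7 had 719.7, 440.3 and 318.6 in males and 332, 293.4 and 145.1 in females, overlapping but higher in males in 3 of 3 numbered pairs (0.82, limma adjusted p = 0.941, with the block 0.0401). Akr1c12 stayed called with the block (limma adjusted p = 0.00548). The block called 0.674% of all probe sets higher in males and 0.369% higher in females, so 2 of 52 members higher in males is 3.85% and 1 lower is 1.92%.

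Adh1, Rdh16f2, Akr1c21 and Dhrs7 were among the members that differed in 1 direction in every numbered pair of kidney samples without a call. Others, such as Rdh16 and Aldh9a1, did so too, and the share over all probe sets was not determined. Adh1 stood at 9410, 6480 and 9453 in males and 5461, 4644 and 5657 in females, with no overlap (0.67 ± 0.19, limma adjusted p = 0.605, with the block 0.0523). Rdh16f2 had 3307, 5012 and 4458 in males and 6961, 6340 and 6417 in females (-0.64 ± 0.18, limma adjusted p = 0.596), which passed when all 8 groups shared 1 estimate of the spread (0.0493). Akr1c21 had males above females in 3 of 3 pairs, at 9626 and 5158, 5461 and 2493, and 9121 and 7616 (0.75 ± 0.39, limma adjusted p = 1). Dhrs7 (309.4, 591.4 and 496.4 against 526.5, 901.6 and 694.7) was lower in males by -0.57 and was not called. Akr1cl was lower in males in 2 of 3 pairs, those with the raised female samples described above, and was not called (-0.68). All 3 male values lay above all 3 female ones for 5 members (9.62%, background 4.22%) and below them for 3 (5.77%, background 5.27%).

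**Figure D4:**
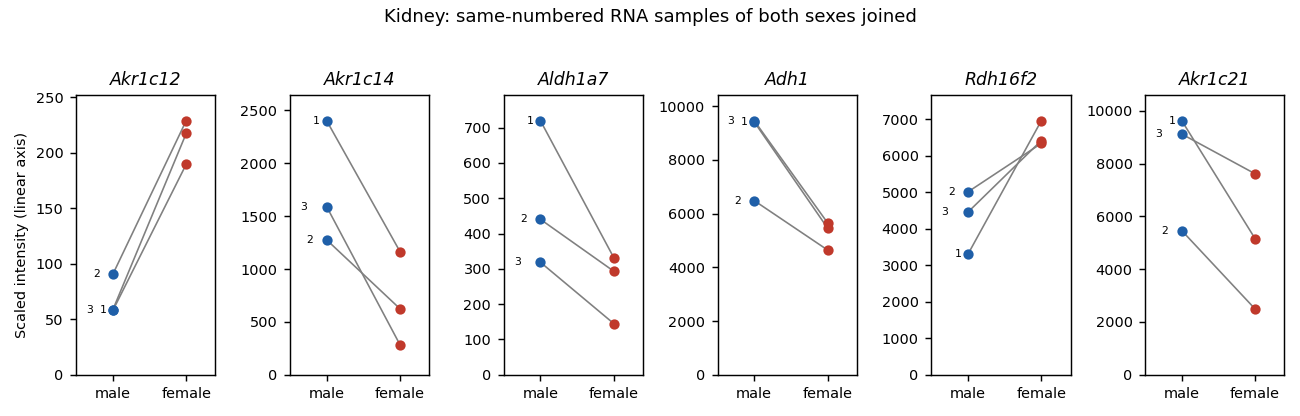
Scaled intensity (linear axes from 0) of 6 members in the 3 male (blue) and 3 female (red) kidney samples, with lines joining samples of the same number. Akr1c12 rises from male to female in every pair and Rdh16f2 likewise, and Akr1c14, Aldh1a7, Adh1 and Akr1c21 fall in every pair.

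In hypothalamus 0 of 37 tested members were called by limma, where 0.0363% of all probe sets were called higher in males and 0.0145% in females. At an unadjusted p under 0.05 there was 1 in each direction (2.7% each, background 1.16% and 1.1%). Akr1e1 had 475.2, 444 and 527.5 in males and 378.9, 300.1 and 383.9 in females (0.42 ± 0.12, limma adjusted p = 1). Aldh9a1 had 629, 592.9 and 637.1 in males and 701, 723.9 and 747.6 in females (-0.21 ± 0.09, limma adjusted p = 1). Neither pair of groups overlapped, nor did those of Rdh10 (225.9 to 243.5 in males and 272 to 282.2 in females). The share of all hypothalamus probe sets without overlap is not given here. Rdh10 (237.5 against 276.4), Akr1b8 (199.2 against 221.9), Dhrs4 (269.3 against 217.5) and Dhrs1 (485.8 against 411.2), as male against female means, were the others among the 3 largest in each direction. The sex difference was also compared between tissues. For 0 of 65 members did it differ by the interaction test of limma, where 0.237%, 0.0178% and 0.207% of all probe sets were called for liver against kidney, liver against hypothalamus and kidney against hypothalamus.

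Testis and ovary differed widely over the array, and so did the members. Of 50 tested probe sets 9 (18%) were called higher in testis, against 24.9% of all, and 26 (52%) higher in ovary, against 45.6% of all. By gene 7 of 38 were higher in testis and 19 in ovary, and in all 26 the samples of testis and ovary did not overlap. By probe set 11 lay wholly above in testis (22%, background 26.9%) and 26 in ovary (52%, background 47.6%). Scaling matters here: the median over all tested probe sets was -0.35, and -0.51 over the members, and with arrays centred on their medians it was 0.02 over all and -0.15 over the members. The members then split into 16 higher in testis and 20 higher in ovary, and all probe sets into 5227 and 5033. With quantile normalization the members split 13 to 26. Values below are best read against the median shift of -0.35.

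Ovary exceeded testis most for Akr1c14, at 1927, 1579 and 1317 in ovary and 31.15, 32.8 and 27.05 in testis (testis minus ovary -4.39 ± 0.17, limma adjusted p = 6.34e-08). With testis values below the pseudocount, Akr1c14 met the filter through ovary alone. Adh1 followed with 5671, 7253 and 8057 in ovary and 728.8, 605 and 1382 in testis (-2.96 ± 0.28, limma adjusted p = 1.26e-05). For both genes testis was far below liver and kidney as well. Rdh10 had 807.8, 666.9 and 666.3 in ovary and 156.6, 151.9 and 153.8 in testis (-1.92 ± 0.15, limma adjusted p = 3.48e-06). Aldh18a1 differed by -1.88 ± 0.16 and Akr1cl by -1.36 ± 0.15. Differences between -1.35 and -1.16 were found for Aldh6a1, Dhrs3, Adh5, Akr1c13, Dhrs7 and Aldh2, and between -0.98 and -0.88 for Rdh13, Adh7, Aldh4a1 and Aldh3a2, all called by limma. With testis values of 90.8, 83.25 and 109.4, Akr1c13 was tested only because of ovary. Aldh7a1, Akr1a1, Aldh9a1 and Aldh1b1 were called lower in testis by differences of -0.47 to -0.60, calls that these 4 genes lost with median centring (-0.10 to -0.23), and Aldh1b1 also with quantile normalization (-0.11). Leaving out 1 sample also ended these calls: for Aldh7a1 any of testis 1, testis 2, ovary 1 or ovary 3 (-0.47 to -0.62), for Akr1a1 any of testis 1, testis 2, ovary 2 or ovary 3 (-0.39 to -0.51), for Aldh9a1 ovary 2 or ovary 3 (-0.48 and -0.49), and for Aldh1b1 any but testis 3 (-0.33 to -0.53). Adipocyte markers summed to 641.9 to 1557 in testis and 6910 to 10180 in ovary, and the 3 steroid-cell markers measured to 5667 to 11550 and 16210 to 20870, and their part in these differences was not tested.

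Testis exceeded ovary most for Adh4, with 500, 383.3 and 485.6 against 18.6, 33.4 and 19.7 (2.82 ± 0.16, limma adjusted p = 5.84e-07). With ovary values below the pseudocount, Adh4 met the filter through testis alone. Rdh11 had 2397, 2369 and 3899 in testis and 490.3, 511.1 and 444.6 in ovary (2.43 ± 0.21, limma adjusted p = 6.3e-06). Dhrs1 differed by 1.98 ± 0.19, Akr1e1 by 1.20 ± 0.16 and Aldh1a7 by 1.11 ± 0.22, and Dhrs7b (0.74) and Dhrs11 (0.50) were also called higher in testis. Dhrs7b was not called without ovary 3 (0.63), nor Dhrs11 without testis 2 (0.47) or ovary 1 (0.37). Aldh1l1 gave different answers by probe set: the brightest had 440.3, 281.4 and 1022 in testis against 750, 869.2 and 811.6 in ovary and was not called (-0.63 ± 0.36, limma adjusted p = 0.145), and the dimmer one was called higher in testis (0.87 ± 0.15, limma adjusted p = 5.22e-04). The dimmer one had only 165.4 to 193.7 in testis. Its ovary values of 72.21 to 81.56 lay below the lowest 40th percentile of any array (106.8), so it met the filter through testis alone. Apart from Aldh1a7, the tested retinaldehyde dehydrogenases were not called: Aldh1a2 (0.57, limma adjusted p = 0.0687), Aldh8a1 (0.55, 0.058) and Aldh1a1 (-0.46, 0.127). With median centring and with quantile normalization Aldh1a2 (0.94 and 0.61) and Aldh8a1 (0.92 and 0.89) were called higher in testis, and with quantile normalization Aldh1a1 was called lower (-0.77). Without testis 3, Aldh1a1 was called lower (-0.72, limma adjusted p = 0.00554), Aldh1l1 lower (-1.11, 3.01e-04) and Aldh8a1 higher (0.80, 0.00129) in testis. In testis 3 the steroid-cell markers summed to 11550 against 6383 and 5667 in testis 1 and 2, and the germ cell markers to 80050 against 101000 and 101700. Akr1b8 was not called (0.56, limma adjusted p = 0.0818), but was without testis 2 (0.83, 0.0091) and with median centring (0.92, 0.0128).

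**Figure D5:**
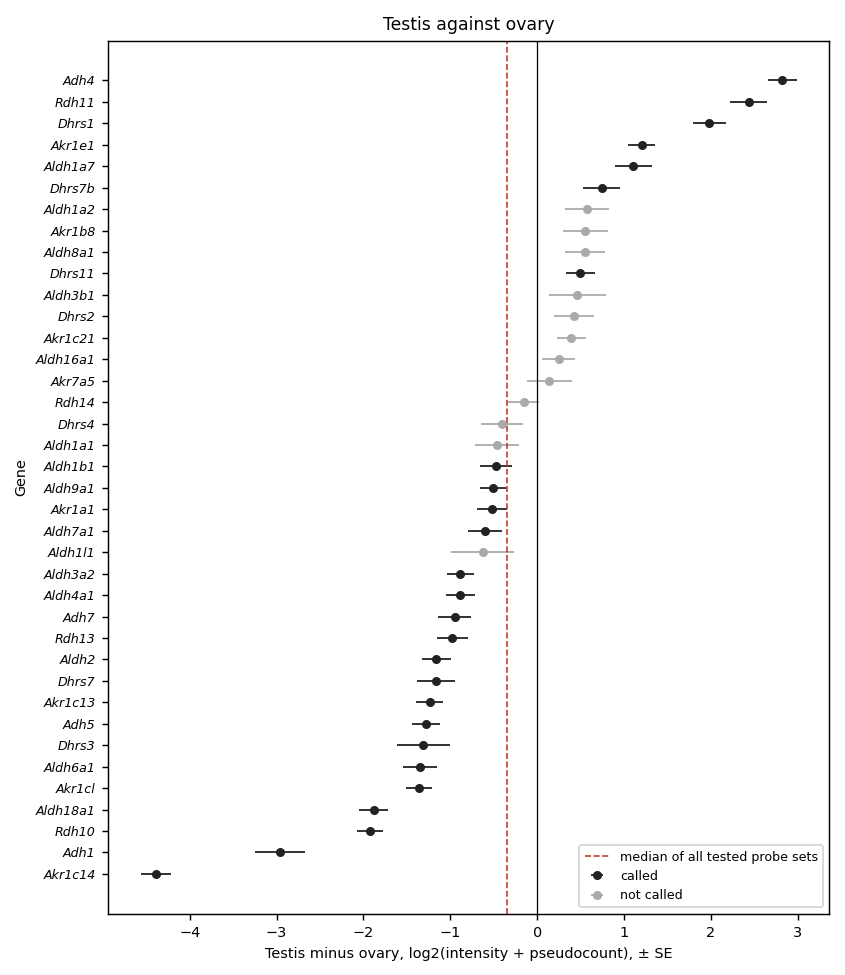
Testis minus ovary difference (points) with the SE of the fit (bars) on the log2(intensity + pseudocount) scale for the 38 tested genes; black points are called by limma, grey ones are not, and the dashed line is the median of all tested probe sets at -0.35. Adh4, Rdh11 and Dhrs1 lie farthest to the right and Akr1c14 and Adh1 farthest to the left.

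Other genes of the same pathways, from lists chosen with earlier results known, gave the setting. Of 18 measured genes of retinoid handling, 6 were highest in liver, 4 in ovary, 2 in testis and 0 in kidney or hypothalamus by limma. Over all tested probe sets these shares were 8.88% for liver, 9.13% for ovary, 16.2% for testis, 6.73% for kidney and 19.6% for hypothalamus, which also stand as background to the tissue counts of the other lists. Rbp4, the plasma carrier of retinol, averaged 17240 in liver and at most 1192 elsewhere, Crabp2, which carries retinoic acid into the nucleus, averaged 291.9 in ovary and at most 23.07 elsewhere, and Cyp26a1, which degrades retinoic acid, had 538.7 in ovary and 342.5 in liver. In testis against ovary 4 of 16 were higher in testis and 9 lower, with a median of -1.34 against -0.35 over all tested probe sets, of which 24.9% were called higher in testis and 45.6% lower. None of the 13 tested in kidney was called between the sexes, and with the block 1 was, Ttr, a thyroxine and retinol carrier (5786 in males, 3600 in females, limma adjusted p = 0.811, with the block 0.0495). Of 13 genes of ethanol and acetate handling, 5 were highest in kidney, 3 in liver and 1 in ovary. Cyp2e1, the ethanol-oxidising cytochrome, averaged 15370 in liver and 5594 in kidney, and in kidney it was higher in males (8597 ± 1376 against 2592 ± 477.6, SD, n = 3; 1.72 ± 0.19, limma adjusted p = 0.0102), the 1 gene of 13 called. In testis against ovary 2 of 12 were higher and 9 lower, with a median of -1.23. Of 16 targets of the stress factor Nrf2, which also drives several aldo-keto reductases, 5 were highest in liver, 3 in kidney, 2 in ovary and 1 in hypothalamus. Gsta2, a glutathione transferase, was the 1 of 15 called in kidney, lower in males at 1991 ± 275 against 5346 ± 671.3 (SD, n = 3; -1.41 ± 0.17, limma adjusted p = 0.0121), and the block added Gsta4. Between testis and ovary 3 of 15 Nrf2 targets were higher and 7 lower, with a median of -0.48, counts close to the background shares given above. No gene of the 3 lists was called between the sexes in liver or hypothalamus, where the unadjusted p was under 0.05 for Gclc and Me1 in liver alone.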

How the data were processed

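RNA of 8 groups was measured on 48 Affymetrix arrays. The deposited values are linear intensity values, 1 per probe set and array; the summary software is not given in the sources used here. Per the labels the RNA was purchased. The deposited arrays had 2% trimmed means of 500.11 to 500.23, and the 2 arrays of an RNA sample correlated at 0.9656 to 0.9899. The number of arrays limits the precision.

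Samples were grouped by their titles. Each array was set to the same 2% trimmed mean, 48.1 (the 20th percentile over the scaled arrays) was added before log2, and both arrays of a sample were averaged. Tests used lmFit and eBayes of limma 3.58.1 under R 4.3.3: sexes, and testis against ovary, in fits of 6 RNA samples, tissues in a fit of all 24, and interactions in a fit of 18. P-values were adjusted by Benjamini-Hochberg over all tested probe sets, 13795 in liver, 13807 in kidney, 13771 in hypothalamus, 14928 in the gonads and 18058 for tissues. Intensities printed are means of 2 arrays; ± gives the SE of the fit unless SD is named. The scripts were tested on simulated data.

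Same-numbered male and female samples met the rule for pairing, that their deviations from the group means all correlate above 0.1: in liver at 0.536, 0.139 and 0.482, for kidney at 0.591, 0.426 and 0.627, and for hypothalamus at 0.39, 0.101 and 0.328. Differently numbered samples reached at most 0.287 in liver, above that of number 2, -0.118 in kidney and 0.0895 in hypothalamus. The numbers come from the titles, and the fits were made without the block, which was an alternative.

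Named are called members, the 10 or fewer per tissue with the largest margin, the 3 largest uncalled differences in each direction, and up to 4 genes of each other list. Adh1, Akr1c13 and several others were named after their values were seen, as were the 6 promoters. Members and lists were chosen with earlier results of these data known. Platform symbols were used as given, and 2 probe sets that join a member with another symbol were left out. Alternatives covered scaling, pseudocount, filter, arrays, variance model, replicate block, shared fits and left-out samples. Python 3.11.15 with matplotlib 3.10.9 made the figures.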

Additional observations from a re-analysis of the deposited data

Results flagged for a closer look

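The sex difference of 2 members ran in opposite directions in 2 tissues without overlap of the samples. How many of all probe sets did so was not determined. Within kidney alone, 4.22% of all tested probe sets lay wholly higher in males and 5.27% wholly higher in females. Akr1c6 was higher in all 3 male than in all 3 female samples of liver (12250 against 10990 on average) and lower in hypothalamus. There all values lay between 17.25 and 26.1, below the pseudocount and too dim to be tested between the sexes. The difference between the tissues was 0.24 on the log2 scale. Aldh9a1, whose second probe set averaged 4598 in male and 4707 in female kidney, was by its brightest one higher in male kidney (6199 against 5157). It was lower in male hypothalamus (619.7 against 724.2), a difference between the tissues of 0.48. Neither sex difference was called in its own tissue, and neither passed the interaction test of limma (adjusted p = 1 for both, unadjusted 0.135 and 0.0172).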

How the results depend on the processing

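Counts of members called between the sexes in liver and hypothalamus were 0 under every alternative and without any 1 sample. In kidney the count of 1 became 0 with 4 times the pseudocount, with no filter or with first arrays only, and 3 with the replicate block or with all 8 groups in 1 fit; leaving out 1 sample at a time gave 0 to 1. The lost call was Akr1c12 each time, at adjusted p = 0.0989, 0.075 and 0.0889, and the cause was not tested. For testis against ovary the 35 calls ranged from 30 to 42 without 1 sample and from 33 to 41 otherwise, and the 20 largest called genes kept their call under every alternative. With the replicate block there were 38, although same-numbered gonad samples share only a number (correlations 0.0419, 0.146 and 0.0426), and Aldh1a2, Akr1b8 and Aldh8a1 passed (0.028, 0.0429 and 0.0336); apart from these and the kidney calls the block changed no call named in the text between 2 groups. Counts highest in liver (22), kidney (9) and ovary (6) stayed at 19 to 24, 7 to 12 and 6 to 8. The hypothalamus count of 1 rose to 2 with no filter, which added the dim Akr1b10, and to 3 with first arrays only. The testis count of 4 became 8 with median centring and 2 with technical replicate arrays only, and 3 to 6 without 1 sample. The interaction count was 0 to 1 without 1 sample, the 1 arising without female kidney 1. The uncalled Akr1b8 difference in hypothalamus ranged from -0.319 to 0.092 without 1 sample, turning sign without male hypothalamus 1. Dim probe sets limit the hypothalamus, where 41 of 78 members were not tested.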

Other observations

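Samples of the same number resembled each other in both kidney groups for several members, in opposite directions by gene. Akr1c13 was highest in number 2 of both sexes (461.5 in males and 691 in females), and Akr1c21 was lowest there (5461 and 2493). Aldh1a1 was highest in number 1 (1344 and 791.3), and Rdh7, which averages far higher in liver, likewise stood at 128.1 and 98.4 in number 1 and at 33.8 to 55.05 in the other 4 kidney samples. Liver markers summed to 1443 and 2339 in male and female kidney 1, to 498.1 and 799.9 in number 2, and to 2354 and 618.5 in number 3. The part of liver RNA in these values was not tested.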
